A study of Homo sapiens with 12 samples.

Results

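The genes described here are 34 chaperones, folding enzymes, stress sensors and degradation factors of the endoplasmic reticulum (ER) that make up the folding machinery and the unfolded protein response. They were taken by symbol from a table of 26475 gene entries, and all 34 were present. The table covers A375, an established human melanoma line, in 4 treatments of 3 libraries each, all for 24 h. The treatments were the vehicle DMSO, XL413 at 1 µM (an inhibitor of the replication kinase CDC7), OF1 at 1 µM (an inhibitor of the bromodomain proteins BRPF1, BRPF2 and BRPF3), and both inhibitors together at 1 µM each, called the combination. All cells were grown in DMEM with fetal bovine serum, and no untreated group is used here. The study is of a single line, so nothing here speaks to other melanoma cells. The 3 libraries of each group are labelled as biological replicates, and separate cultures are not mentioned. A p-value here therefore sets a difference between groups only against the spread of these libraries, which may be technical.

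Proteins that enter the secretory pathway are folded in the ER lumen by chaperones of the BiP and GRP94 families, by disulfide isomerases and by the lectins calnexin and calreticulin. When unfolded proteins build up, the sensors IRE1 (ERN1), PERK (EIF2AK3) and ATF6 are activated. IRE1 splices the mRNA of the transcription factor XBP1, and cleaved ATF6 moves to the nucleus. Together these factors raise chaperone and degradation genes, often through promoter elements called ERSE and ERSE-II. PERK phosphorylates eIF2α, which raises the translation of ATF4, a factor that other kinases of the integrated stress response raise too. PPP1R15A (GADD34) is a target of that branch and helps to remove the phosphate again. Counts per gene do not distinguish spliced from unspliced XBP1, and they say nothing of phosphorylation or cleavage.

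Promoters were searched because the elements are the known link between the sensors and the chaperone genes. ERSE was searched as CCAAT, any 9 bases and CCACG, and ERSE-II as ATTGG, any 1 base and CCACG, on both strands of RefSeq windows of 300 bases (250 before and 50 after a gene's start, GRCh38.p14). Of the 34 genes, 31 matched a window, and PDIA3, DERL1 and DERL3 did not. At least 1 of the elements was in the windows of 10 of those 31 genes, against 44 of 27305 genes (0.161%) overall. The members were listed as genes of this response and the elements are its known sites, so an excess was set in advance. It describes the list and is no result of these libraries. The shares of windows, over all genes, were 0.0769% for ERSE and 0.0541% for ERSE-II. ERSE was in CALR, CANX, CRELD2, HSP90B1, HSPA5, PDIA6 and XBP1, and ERSE-II was in HERPUD1, HYOU1 and SDF2L1. The windows of 5 of them are shown, with the element in capitals, because these genes carry an element and lead the results below in opposite directions: HSPA5, CALR and SDF2L1 were lower with OF1, while XBP1 and HERPUD1 were higher in at least 1 comparison. Each is printed 5′ to 3′ on the gene's own strand: HSPA5 at chr9:125241294-125241593 (minus strand), CALR at chr19:12938359-12938658 (plus), SDF2L1 at chr22:21642052-21642351 (plus), XBP1 at chr22:28800520-28800819 (minus) and HERPUD1 at chr16:56931892-56932191 (plus).
HSPA5: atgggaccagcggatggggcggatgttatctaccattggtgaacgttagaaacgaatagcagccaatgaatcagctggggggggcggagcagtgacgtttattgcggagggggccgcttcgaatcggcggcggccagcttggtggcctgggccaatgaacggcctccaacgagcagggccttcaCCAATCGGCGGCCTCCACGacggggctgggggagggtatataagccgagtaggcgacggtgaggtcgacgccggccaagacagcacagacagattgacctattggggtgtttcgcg
CALR: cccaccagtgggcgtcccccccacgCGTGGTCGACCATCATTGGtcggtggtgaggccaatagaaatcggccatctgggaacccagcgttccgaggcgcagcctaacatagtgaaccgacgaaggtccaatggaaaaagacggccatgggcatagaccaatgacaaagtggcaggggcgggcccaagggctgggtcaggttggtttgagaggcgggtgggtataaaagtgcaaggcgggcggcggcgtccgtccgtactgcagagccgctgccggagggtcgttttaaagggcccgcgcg
SDF2L1: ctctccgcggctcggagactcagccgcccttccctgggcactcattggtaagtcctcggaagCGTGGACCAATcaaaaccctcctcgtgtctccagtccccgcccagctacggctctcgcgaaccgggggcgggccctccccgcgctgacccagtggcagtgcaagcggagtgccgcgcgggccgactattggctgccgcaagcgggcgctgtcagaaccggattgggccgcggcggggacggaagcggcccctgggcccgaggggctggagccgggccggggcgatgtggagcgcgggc
XBP1: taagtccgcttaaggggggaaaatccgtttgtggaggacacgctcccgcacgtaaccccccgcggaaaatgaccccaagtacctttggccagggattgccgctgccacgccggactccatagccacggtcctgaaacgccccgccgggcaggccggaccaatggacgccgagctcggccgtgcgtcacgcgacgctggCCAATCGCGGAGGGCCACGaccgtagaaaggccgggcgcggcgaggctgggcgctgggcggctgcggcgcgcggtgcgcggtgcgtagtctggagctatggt
HERPUD1: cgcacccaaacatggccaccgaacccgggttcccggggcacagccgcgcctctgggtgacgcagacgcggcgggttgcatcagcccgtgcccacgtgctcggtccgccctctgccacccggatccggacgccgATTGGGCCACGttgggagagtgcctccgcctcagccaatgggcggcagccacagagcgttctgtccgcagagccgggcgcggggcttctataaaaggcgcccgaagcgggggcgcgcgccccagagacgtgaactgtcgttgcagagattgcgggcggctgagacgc
In CALR and SDF2L1 the element reads on the other strand, so the capitals show its reverse complement. Of the 10 genes with an element 6 fell and 1 rose in the average OF1 effect described below, and of the 21 whose window held neither 1 fell (P4HB) and 1 rose (PPP1R15A), where 2.74% of all genes were called lower and 2.21% higher. Only exact matches were counted, so a variant of an element counts as absent. CALR, HSP90B1, HSPA5, PDIA6 and CANX, which hold an element, are also among the members of highest level. Of all genes with a mean of at least 100 CPM, 6.11% were called lower. Whether the calls go with the element or with the level was not tested. A match of letters is a description and not a measured binding site.

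**Figure D1:**
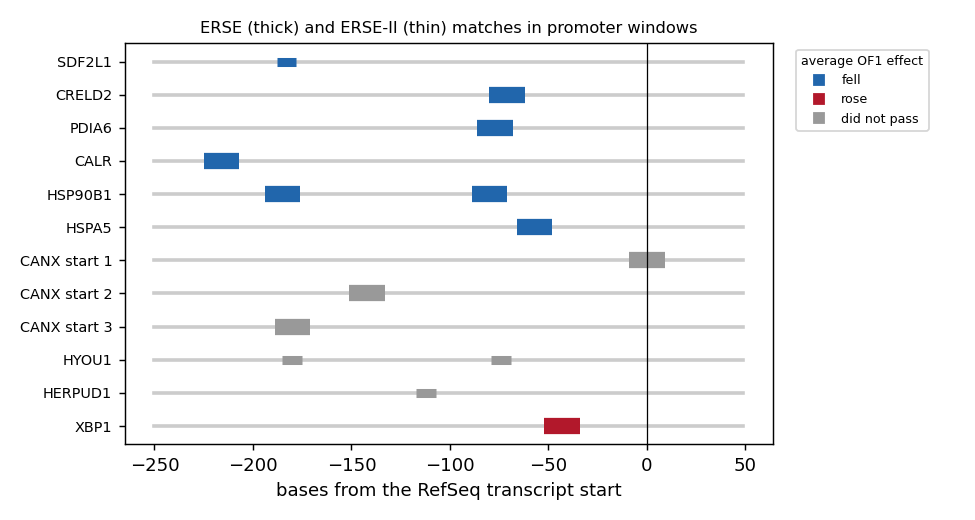
Position of the ERSE (thick bars) and ERSE-II (thin bars) matches in the promoter windows of the 10 members that hold one, in bases from the RefSeq transcript start, coloured by the call in the average OF1 effect; CANX has 3 starts that share 1 match. Of the 10 genes 6 fell, 1 rose (XBP1) and 3 did not pass (CANX, HYOU1 and HERPUD1).

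Total counts per library ran from 30499559 to 36062138. Of 8 melanocyte markers, SOX10 (318 to 386 CPM), MITF (32.8 to 44.4 CPM) and S100B (20.2 to 24.5 CPM) were present. The other 5 stayed under 1.1 CPM. PMEL was at most 1.04 CPM, TYRP1 0.543, MLANA 0.240 and DCT 0.207, and TYR was at 0 in all 12 libraries. CPM are counts scaled to library size with edgeR's TMM factors. A list of 28 skeletal muscle genes, highest for ACTC1 and DES, summed to 127 to 402 CPM in the other libraries and to 142, 43.5 and 61.8 CPM in combination replicates 1, 2 and 3. A list of 12 fibroblast genes, highest for COL1A1 and COL1A2, summed to 309 to 393 CPM in the other libraries and to 114 to 246 CPM with the combination. Of these lists, 5 of 28 and 8 of 12 genes fell with the combination against DMSO, where 5.07% of all genes were called lower. Against XL413 18 of 28 and 7 of 12 fell (2.35% of all genes), and against OF1 24 of 28 and 9 of 12 (2.71%). In the average OF1 effect described below 0 of 28 and 4 of 12 fell (2.74%). In that average 27 of the 28 muscle genes were still below 0, with a median log2 change of -0.71. Which cells these transcripts come from is not known. In bulk RNA, fewer cells that express them and less RNA per cell cannot be told apart. What these transcripts contribute to the results was tested only by a fit with the muscle score as a covariate and by a fit with combination replicate 1 as the lone combination library.

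The members spanned a wide range of level. Per kilobase of transcript the highest in DMSO was the lectin chaperone CALR (751 ± 4.86 CPM per kilobase, SD, n = 3), followed by the ER Hsp90-type chaperone HSP90B1 (GRP94, 336 ± 1.57), the disulfide isomerase P4HB (249 ± 2.36), the BiP gene HSPA5 (225 ± 1.86) and the isomerase PDIA6 (172 ± 3.21). CANX (calnexin) came next at 164 ± 3.33, and its difference from PDIA6 was not tested. Sensors were far lower, with 8.64 ± 0.206 for ATF6, 2.17 ± 0.120 for EIF2AK3 and 0.267 ± 0.0199 for ERN1. DERL3, a membrane factor of ER-associated degradation, never exceeded 5 counts and was not tested, which left 33 members. Libraries of a group were close: the pooled SD of a member ran from 1.12% to 10.9% of its mean, with a median of 4.06%.

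OF1 was given alone and on top of XL413, and the average of these contrasts compares all 6 libraries with OF1 with all 6 without it. In this average, 8 of the 33 members fell and 2 rose. Of all 15353 genes tested, 2.74% were called lower and 2.21% higher. The 8 that fell were chaperones or folding enzymes: HSPA5, HSP90B1, SDF2L1 and CRELD2 among BiP, GRP94 and their partners, P4HB, PDIA3 and PDIA6 among the isomerases, and CALR. The 2 that rose were XBP1 and PPP1R15A. All but SDF2L1 and CRELD2 passed in each of 21 alternative fits, among them the fit with the muscle score as a covariate and 12 that left out a library each. The changes were small, between 6.74% and 13.5% for the genes that fell. Among genes with a mean of at least 100 CPM, where 6.11% of 2210 genes were called lower and 3.94% higher, 6 of the 12 members fell and 0 rose. In the 21 members below that level 2 fell and 2 rose.

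**Figure D2:**
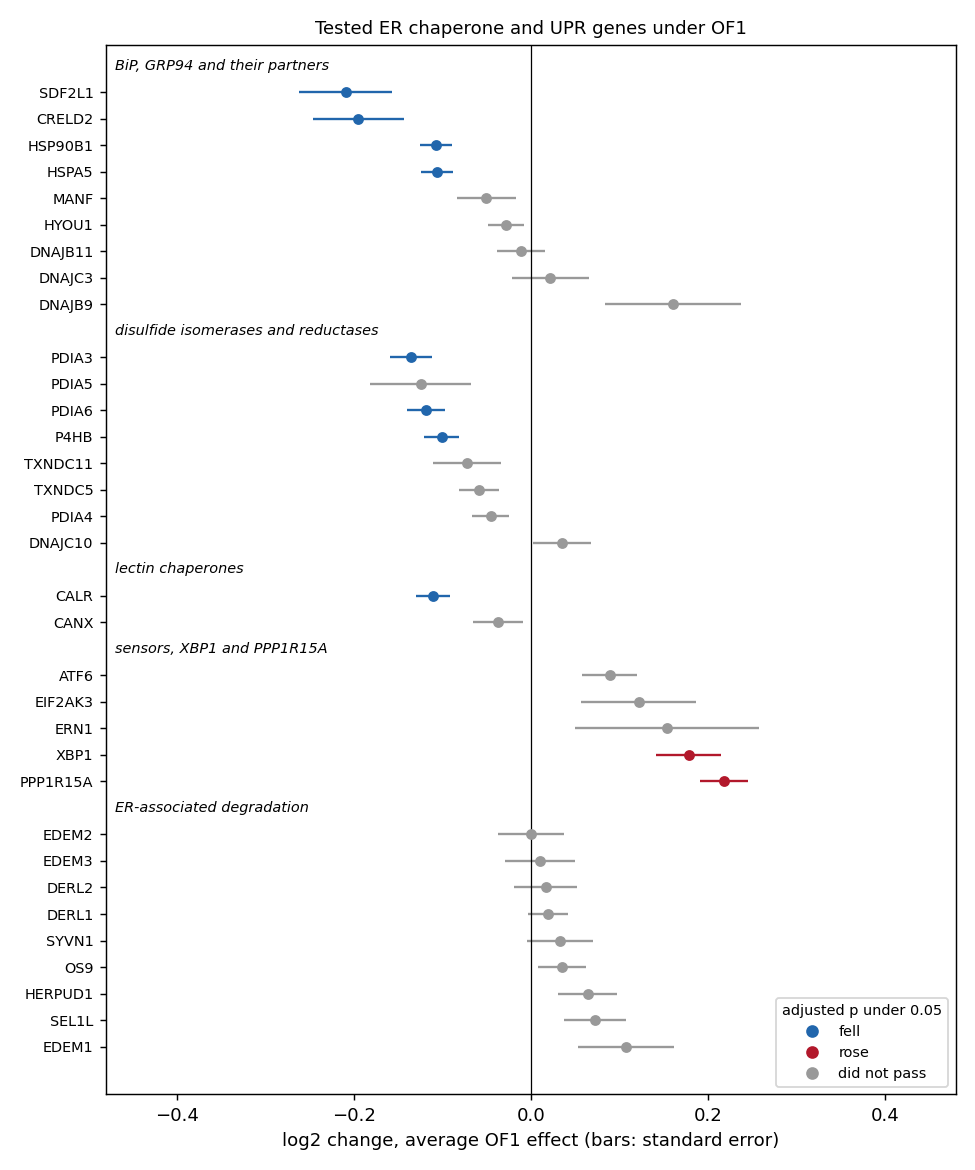
Average log2 change with OF1 of the 33 tested members by role, 1 point per gene with its standard error, coloured by call at an adjusted p under 0.05. The 8 that fell all lie in the chaperone and folding groups, and the 2 that rose lie with the sensors and their effectors.

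BiP, encoded by HSPA5 (chr9:125234853-125241343, minus strand), is the main lumenal chaperone and also holds the sensors inactive. HSPA5 stood at 883, 873 and 887 CPM in the DMSO libraries, 851, 849 and 839 with XL413, 811, 833 and 810.5 with OF1 and 797, 787 and 777 with the combination. Every library with OF1 was below every library without it. The average OF1 effect was -0.11 ± 0.02 on the log2 scale (SE), with an edgeR adjusted p of 0.00362. GRP94, encoded by HSP90B1 (chr12:103930410-103947926, plus strand), folds a smaller set of secreted and membrane proteins. HSP90B1 stood at 957, 962 and 966 CPM in the DMSO libraries, 969, 987 and 998 with XL413, 905, 919 and 902 with OF1 and 909, 897 and 888 with the combination. Here too the OF1 libraries did not overlap with the others, and the average effect was -0.11 ± 0.02 (adjusted p = 0.00299).

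SDF2L1 (chr22:21642302-21644299) works with the BiP co-chaperone DNAJB11 and was the member with the largest fall. SDF2L1 stood at 30.5, 32.0 and 32.2 CPM in the DMSO libraries, 32.9, 32.3 and 30.5 with XL413, 26.8, 29.7 and 31.5 with OF1 and 24.1, 23.8 and 29.3 with the combination. Its groups overlapped, and the average effect of -0.21 ± 0.05 (adjusted p = 0.034) passed in 12 of 21 alternatives, and not with the muscle score as a covariate. With a library left out it ran from -0.26 to -0.18 (highest adjusted p 0.0855) and passed without DMSO replicate 1, XL413 replicate 3, OF1 replicate 3 or combination replicate 3, and did not pass without any of the other 8. CRELD2 (chr22:49918634-49927537), a secreted ER protein raised by ER stress, was at an average of -0.19 ± 0.05 (adjusted p = 0.0419). CRELD2 stood at 23.2, 23.4 and 25.4 CPM in the DMSO libraries, 27.5, 28.6 and 26.3 with XL413, 19.7, 23.2 and 25.2 with OF1 and 21.6, 22.4 and 22.3 with the combination. It passed in 9 of 21 alternatives, also not with the muscle score. With a library left out it ran from -0.24 to -0.15 (highest adjusted p 0.105) and passed without OF1 replicate 3 or combination replicate 3 but not without any of the other 10. It lies opposite ALG12, whose count was 59.0% of its own, so its reads are uncertain where strand was not used in counting. The same limit holds for other members that overlap a gene on the opposite strand: DNAJB9 with THAP5 (323% of its count) and PNPLA8 (238%), SYVN1 with MRPL49 (248%), DERL2 with MIS12 (88.7%), TXNDC11 with SNN (27.3%), DERL1 with TBC1D31 (22.9%) and DNAJB11 with TBCCD1 (11.9%). DERL3, which was not tested, lies opposite SMARCB1. SYVN1 also overlaps FAU (994%) and PDIA5 overlaps SEC22A (119%) on the same strand, so their counts are uncertain with or without the use of strand. Of the other partners of BiP, the exchange factor HYOU1, the J-domain proteins DNAJB9, DNAJB11 and DNAJC3 and the secreted factor MANF did not pass, with average effects between -0.05 (MANF) and 0.16 (DNAJB9).

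P4HB (chr17:81843166-81860535), the classical disulfide isomerase, was similarly lower. P4HB stood at 655, 647 and 643 CPM in the DMSO libraries, 644, 639 and 625 with XL413, 602, 612 and 605 with OF1 and 575, 589.7 and 607 with the combination. Its average effect was -0.10 ± 0.02 (adjusted p = 0.00947). PDIA3 (chr15:43746438-43773278), also called ERp57, acts on glycoproteins bound to calnexin and calreticulin. PDIA3 stood at 339, 354 and 354 CPM in the DMSO libraries, 359, 365 and 362 with XL413, 333, 337 and 329 with OF1 and 329, 301 and 314 with the combination. The average effect was -0.14 ± 0.02 (adjusted p = 0.00449). PDIA6 (chr2:10783391-10837712) is an isomerase that also restrains IRE1. PDIA6 stood at 402, 411 and 396 CPM in the DMSO libraries, 394, 389 and 392 with XL413, 367, 379 and 361 with OF1 and 353, 371 and 365 with the combination. It changed by -0.12 ± 0.02 (adjusted p = 0.00528). In each of these 3 genes no library with OF1 reached the level of any library without it. The other isomerases and reductases, PDIA4, PDIA5, TXNDC5, TXNDC11 and DNAJC10, did not pass, with average effects from -0.12 ± 0.06 for PDIA5 to 0.04 ± 0.03 for DNAJC10. The genome-wide share with lower levels and no overlap of libraries was 1.24%, and 6 of the 33 members were of that kind.

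CALR (chr19:12938609-12944489), the lumenal lectin chaperone, was the member of highest level and fell as well. CALR stood at 1427, 1419.8 and 1438 CPM in the DMSO libraries, 1423, 1436 and 1446 with XL413, 1269, 1303 and 1306 with OF1 and 1312, 1379 and 1389.5 with the combination. The average effect was -0.11 ± 0.02 (adjusted p = 0.00449), without overlap. CANX, its membrane counterpart, was at -0.04 ± 0.03 and did not pass (adjusted p = 0.5). CANX stood at 683, 704 and 710.4 CPM in the DMSO libraries, 667, 639 and 672 with XL413, 702, 675 and 640.4 with OF1 and 671, 663 and 619 with the combination. Its libraries with and without OF1 overlapped. The summed level of the 34 members was 7300.3 ± 40.9 CPM in the 6 libraries without OF1 (SD) and 6951 ± 45.6 CPM in the 6 with it, and the 2 sides did not overlap. This sum is weighted towards the most abundant members, among them CALR, HSP90B1, HSPA5 and P4HB, whose falls are given above. It does not describe the set: over the 33 tested members the median average effect was -3.51e-05, with 17 below 0 and 16 above.

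**Figure D3:**
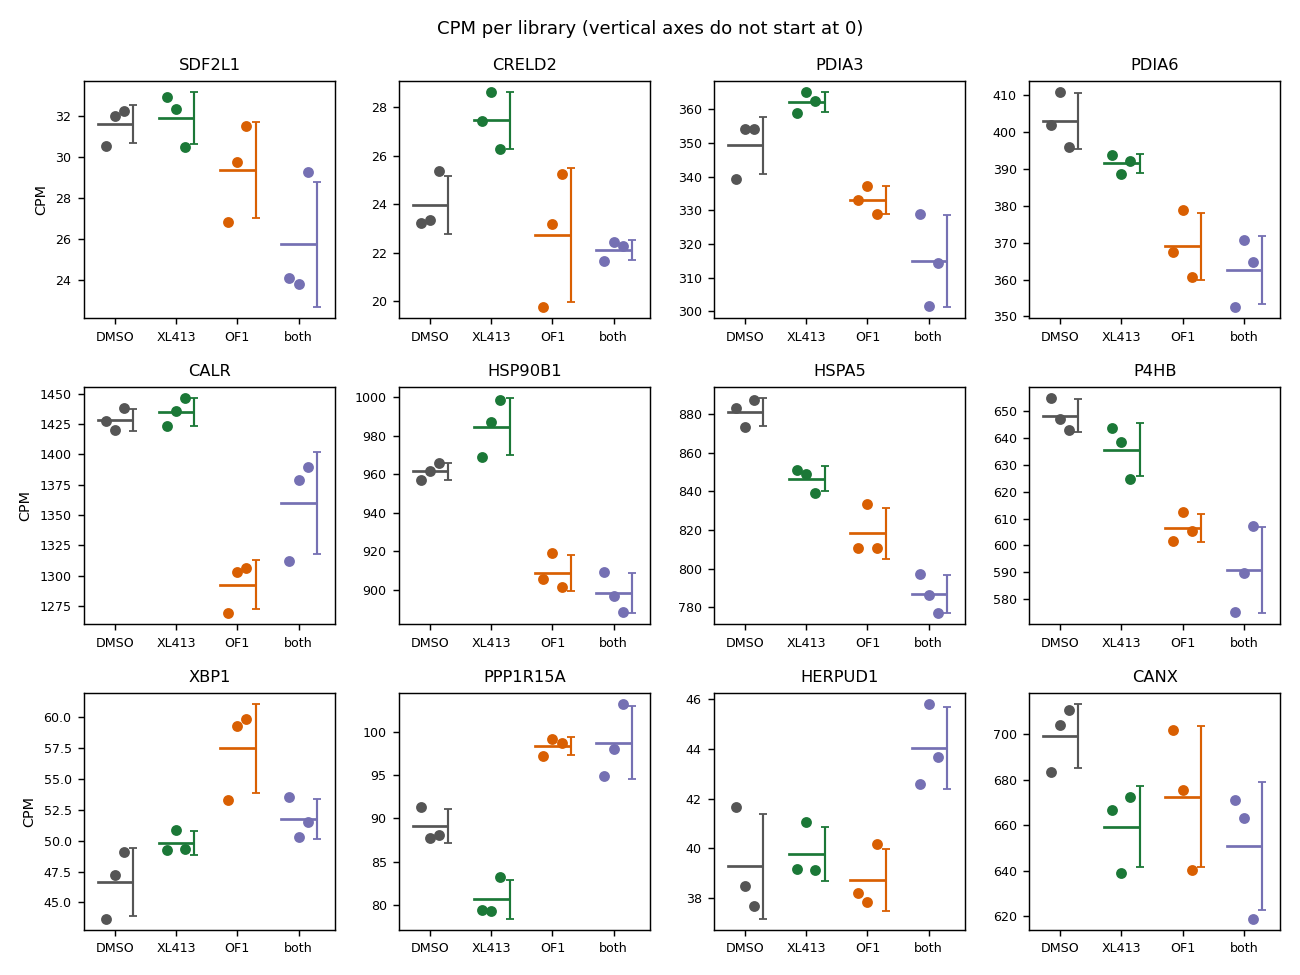
CPM of 12 members in each of the 12 libraries, grouped by treatment ("both" is the combination), with 1 point per library, a line at the group mean and a bracket of 1 SD to each side; vertical axes do not start at 0. In HSPA5, HSP90B1, P4HB, PDIA3, PDIA6 and CALR the 6 libraries with OF1 lie below the 6 without it, and in PPP1R15A above.

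Among the sensors and their effectors, XBP1 and PPP1R15A rose in the average OF1 effect, and all 5 values were above 0. XBP1 (chr22:28794560-28800569, minus strand) encodes the transcription factor that IRE1 activates by splicing. XBP1 stood at 43.6, 47.2 and 49.1 CPM in the DMSO libraries, 49.3, 50.9 and 49.3 with XL413, 53.3, 59.3 and 59.9 with OF1 and 53.5, 50.3 and 51.5 with the combination. With OF1 alone it was 0.30 ± 0.05 above DMSO on the log2 scale (adjusted p = 0.0119), a call lost without DMSO replicate 1, DMSO replicate 2, OF1 replicate 2 or OF1 replicate 3 (0.25 to 0.35 over the fits without a library, highest adjusted p 0.0851). Averaged over both settings the change was 0.18 ± 0.04 (adjusted p = 0.0115). With OF1 its 3 libraries lay above all DMSO libraries, while the combination overlapped with XL413.

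PPP1R15A (chr19:48872421-48876058, plus strand) directs a phosphatase to eIF2α. PPP1R15A stood at 91.3, 87.8 and 88.1 CPM in the DMSO libraries, 79.4, 79.2 and 83.3 with XL413, 97.2, 99.2 and 98.8 with OF1 and 94.9, 98.1 and 103 with the combination. The 6 libraries with OF1 were all above the 6 without it, as in 1.26% of all genes. Its average effect was 0.22 ± 0.03 (adjusted p = 0.000213), the smallest p of the members. The 3 sensors themselves did not pass. ATF6 stood at 65.2, 66.0 and 63.1 CPM in the DMSO libraries, 70.2, 64.9 and 69.1 with XL413, 68.2, 71.6 and 71.1 with OF1 and 75.1, 68.9 and 69.0 with the combination. Its average effect was 0.09 ± 0.03 (adjusted p = 0.121). PERK, the product of EIF2AK3, is the sensor that slows translation. EIF2AK3 stood at 10.2, 9.48 and 10.6 CPM in the DMSO libraries, 11.4, 8.34 and 9.80 with XL413, 11.0, 10.7 and 11.4 with OF1 and 10.6, 10.5 and 10.8 with the combination. ERN1 stood at 2.25, 1.94 and 2.12 CPM in the DMSO libraries, 1.77, 1.66 and 1.99 with XL413, 2.13, 1.92 and 2.40 with OF1 and 2.39, 2.02 and 2.15 with the combination. For both, the libraries with OF1 overlapped with those without it. The average effects were 0.12 ± 0.07 for EIF2AK3 and 0.15 ± 0.10 for ERN1, whose SE is about the size of the changes in HSPA5 and HSP90B1.

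Genes of ER-associated degradation return misfolded proteins to the cytosol. Of 9 tested, 0 passed in the average OF1 effect by edgeR, where 2.21% of all genes were called higher and 2.74% lower. At those shares a count of 0 does not set these 9 apart from other genes. An unadjusted edgeR p under 0.05 was reached by 0 of the 9, against 3105 of all 15353 genes. The average effects ran from -0.00 (EDEM2, a mannosidase-like factor) to 0.11 (EDEM1, of the same family). SEL1L, the partner of the ubiquitin ligase SYVN1, was at 0.07 ± 0.03 (adjusted p = 0.259). SEL1L stood at 58.4, 61.1 and 61.0 CPM in the DMSO libraries, 59.5, 57.8 and 62.5 with XL413, 71.1, 65.2 and 63.0 with OF1 and 62.6, 59.8 and 57.7 with the combination. EDEM3, SYVN1, the membrane factors DERL1 and DERL2 and the lectin OS9 were between 0.01 and 0.04. Across the 19 chaperones and folding enzymes among the members the median average effect was -0.07, with 16 below 0. Across the other 14 members it was 0.07, with 13 above 0. Over all 15353 genes the median was 0.00, with 7535 below 0. In a further list of 28 tested folding enzymes of the ER, taken up below, it was 0.01, with 11 below 0 and 17 above. The split by sign therefore describes these members and not the folding enzymes of the ER as a class.

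XL413 alone called 0 of the 33 members, against 1.26% of all genes higher and 1.54% lower. At an unadjusted edgeR p under 0.05 there were 4, a share not above that of all genes (2851 of 15353). DESeq2 called 1 member and limma-voom 0. The nearest was PPP1R15A, at -0.14 ± 0.04 (adjusted p = 0.0574), with all 3 libraries below DMSO. CRELD2 was at 0.19 ± 0.07 (adjusted p = 0.156). Averaged over both settings XL413 called 0 members as well, where 6.39% of all genes were called higher and 5.63% lower. Of the members, 8 were at an unadjusted edgeR p under 0.05, a share not above that of all genes (4251 of 15353). DESeq2 called 1 member and limma-voom 1. HSPA5 was at -0.06 ± 0.02 (adjusted p = 0.0539) and HERPUD1 at 0.10 ± 0.03 (adjusted p = 0.0617).

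OF1 alone against DMSO called 2 members, XBP1 higher and CALR lower, against 0.58% and 0.567% of all genes. CALR was at -0.14 ± 0.03 (adjusted p = 0.0237), and the call was lost without any 1 of the DMSO or OF1 libraries (-0.15 to -0.13, highest adjusted p 0.0969) and with the muscle score as a covariate. HSPA5 was at -0.11 ± 0.03 with all 3 libraries below DMSO, but did not pass (adjusted p = 0.0598). The combination against DMSO called 8 members: HSPA5, HSP90B1, SDF2L1, P4HB, PDIA3 and PDIA6 fell and PPP1R15A and HERPUD1 rose, where 5.07% of all genes were called lower and 5.65% higher. HSPA5 was at -0.16 ± 0.03 (adjusted p = 0.00125), P4HB at -0.13 ± 0.03 (adjusted p = 0.00827) and PDIA6 at -0.15 ± 0.03 (adjusted p = 0.00621), and these 3 passed in all 12 fits that left out a library. The 6 genes that fell with the combination are all chaperones or folding enzymes. SDF2L1 was at -0.30 ± 0.07 (adjusted p = 0.0202), HSP90B1 at -0.10 ± 0.03 (adjusted p = 0.0236) and PDIA3 at -0.15 ± 0.03 (adjusted p = 0.0124).

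HERPUD1 (chr16:56932142-56944864), which recruits substrates to the ligase SYVN1, was higher with the combination. HERPUD1 stood at 41.7, 38.5 and 37.7 CPM in the DMSO libraries, 39.2, 41.0 and 39.1 with XL413, 38.2, 37.8 and 40.2 with OF1 and 42.6, 45.8 and 43.7 with the combination. It was 0.17 ± 0.05 above DMSO (adjusted p = 0.0367) and 0.19 ± 0.05 above OF1 (adjusted p = 0.0363), the single member called in that comparison, where 2.79% of all genes were called higher and 2.71% lower. Both calls were lost without DMSO replicate 2, OF1 replicate 2, combination replicate 2 or combination replicate 3, the first also without DMSO replicate 3, XL413 replicate 1 or XL413 replicate 3, and the second also without OF1 replicate 1 or OF1 replicate 3. PPP1R15A was 0.15 ± 0.04 above DMSO (adjusted p = 0.0214). With combination replicate 1 as the lone combination library, the calls of HSP90B1, PDIA3, PPP1R15A and HERPUD1 against DMSO ended (log2 -0.08, -0.09, 0.09 and 0.12). HSP90B1 was also lost without DMSO replicate 1, and HSP90B1, SDF2L1, PDIA3 and PPP1R15A without DMSO replicate 2, DMSO replicate 3 or combination replicate 2, and PPP1R15A without combination replicate 3. Over the fits without a library these 5 values ran from -0.11 to -0.10 for HSP90B1, from -0.40 to -0.24 for SDF2L1, from -0.19 to -0.12 for PDIA3, from 0.11 to 0.17 for PPP1R15A and from 0.13 to 0.21 for HERPUD1. With the muscle score as a covariate 2 members passed against DMSO, PDIA6 and XBP1.

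The combination against XL413 called 6 members. HSPA5 (-0.11 ± 0.03, adjusted p = 0.0364), HSP90B1 (-0.13 ± 0.03, adjusted p = 0.0108), SDF2L1 (-0.31 ± 0.07, adjusted p = 0.0333), CRELD2 (-0.31 ± 0.07, adjusted p = 0.0282) and PDIA3 (-0.20 ± 0.03, adjusted p = 0.00436) fell, and PPP1R15A rose by 0.29 ± 0.04 (adjusted p = 0.000557). Of all genes 2.35% were called lower and 1.06% higher. PDIA3 and PPP1R15A passed in all 12 fits that left out a library. HSP90B1 was lost without XL413 replicate 2 or combination replicate 2 (-0.15 to -0.12 over these fits), and CRELD2 without XL413 replicate 1 or 2 or combination replicate 2 (-0.34 to -0.28). SDF2L1 was lost in 6 of the 12 (-0.42 to -0.26), those without DMSO replicate 2, XL413 replicate 1 or 2, OF1 replicate 2, or combination replicate 1 or 2. HSPA5 (-0.12 to -0.10) passed without OF1 replicate 1 or combination replicate 1 or 3 and was lost without any of the other 9. By edgeR 0 members passed with the muscle score as a covariate. These comparisons share libraries (DMSO, XL413 or OF1), so their values are not independent of each other. Non-additivity is the gap between the combination's log2 change and the single changes added up. It was called in 0 of the 33 members and in 0 of all genes, and in 0 members by DESeq2 and by limma-voom. At an unadjusted edgeR p under 0.05 there were 5 members, against 1566 of all 15353 genes. The largest in size was XBP1, at -0.25 ± 0.07 (unadjusted p = 0.00452, adjusted p = 0.214), and PPP1R15A was at 0.15 ± 0.05 (adjusted p = 0.322).

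The wider pathway was followed in 6 further lists. All 6 were chosen with earlier results of these data known, so their counts are descriptions and no independent test. The PERK and ATF4 branch, 25 genes of amino acid supply and stress signalling, had the most calls in the average OF1 effect. There 18 rose and 0 fell, with a median of 0.24, where 2.21% of all genes were called higher and 2.74% lower. ASNS (asparagine synthetase) was at 0.75 ± 0.02 (adjusted p = 1.34e-11), PSAT1, of serine synthesis, at 0.50 ± 0.02 (adjusted p = 5.97e-10) and MTHFD2, of mitochondrial folate metabolism, at 0.30 ± 0.02 (adjusted p = 4.24e-07). ASNS stood at 154, 148 and 151 CPM in the DMSO libraries, 133, 137 and 136 with XL413, 236, 242 and 238 with OF1 and 239, 243 and 244 with the combination. ASNS was above all libraries without OF1 in all 6 with it. With XL413 alone 6 of the 25 fell and 0 rose (median -0.12), where 1.54% of all genes were called lower and 1.26% higher. Among the 6 were SLC7A5, PSAT1 and ASNS. With OF1 alone 10 rose and 0 fell (median 0.18), where 0.58% of all genes were called higher and 0.567% lower. With the combination against DMSO 16 rose and 0 fell (median 0.28), where 5.65% of all genes were called higher and 5.07% lower. The shares of all genes differ between comparisons, so the larger count alone does not measure a stronger response. The combination count was 13 (12 up and 1 down) with combination replicate 1 alone and 10 with the muscle score as a covariate. Non-additivity was called in 0 of the 25. At an unadjusted edgeR p under 0.05 there were 17 (16 above 0 and 1 below), against 1566 of all 15353 genes. Its median over the 25 was 0.20. Of the 28 skeletal muscle genes 27 were also under that p, all below 0. The kinase or sensor upstream of ATF4 is not identified by these counts.

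**Figure D4:**
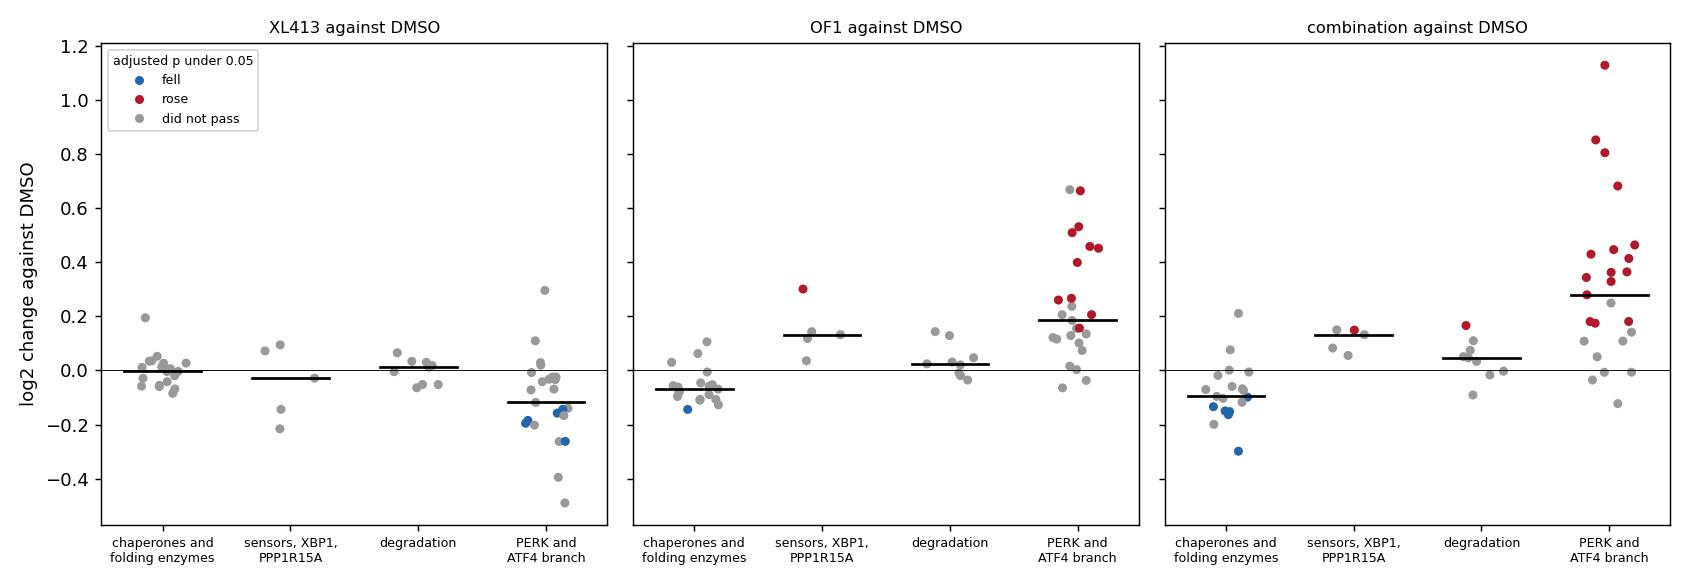
Log2 change against DMSO for each treatment, 1 point per gene, with the median as a bar, for the chaperones and folding enzymes, the sensors with XBP1 and PPP1R15A, the degradation genes and the PERK and ATF4 branch. The branch median is -0.12 with XL413, 0.18 with OF1 and 0.28 with the combination.

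Of 28 tested other folding enzymes of the ER, 3 rose and 1 fell in the average OF1 effect, where 2.21% of all genes were called higher and 2.74% lower. The oxidase ERO1B, which recharges the isomerases, was at 0.26 ± 0.04 (adjusted p = 0.00123), ERP29 at 0.17 ± 0.04 (adjusted p = 0.0241) and HSPA13 at 0.12 ± 0.03 (adjusted p = 0.0314). The gene that fell was SERPINH1, a collagen chaperone (-0.13 ± 0.02, adjusted p = 0.0074). The count was 1 with the muscle score as a covariate. By edgeR 0 of 19 other degradation genes passed (2 at an unadjusted p under 0.05), 0 of 13 regulators of ATF6 and IRE1 signalling (5) and 0 of 12 COPII coat genes (2). At the shares of all genes just given, these counts of 0 do not set the lists apart. Of all 15353 genes, 3105 were at an unadjusted edgeR p under 0.05. Of 22 translocon and signal peptidase genes, 1 passed: SRPRA (-0.07 ± 0.02, adjusted p = 0.0407).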

How the data were processed

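Poly(A) RNA of 12 A375 libraries, 3 per group, was sequenced, per the labels' protocols, from libraries that kept strand through dUTP. The authors deposited RSEM expected counts for each gene, unscaled estimates of reads. The submitters' processing notes name Bowtie2 2.1.0, RSEM 1.2.15 and hg38. Their settings, the annotation and whether counting used strand were not given in the sources used here. Fractional values made up 10.6% of all entries, and every value was rounded.

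Genes passing filterByExpr (15353) were fitted in edgeR 4.0.16 (R 4.3.3) with TMM factors and 1 mean per group over all 12 libraries, leaving 8 residual degrees of freedom. Changes were tested with edgeR's quasi-likelihood F test and adjusted by Benjamini-Hochberg over all genes, with 0.05 as the threshold. SEs were derived as |log2 change|/√F. The 8 comparisons were each treatment against DMSO, the combination against each inhibitor, each inhibitor's average effect and non-additivity. Alternatives were DESeq2 1.42.0, limma-voom (limma 3.58.1), other scalings and filters, a replicate block, a muscle covariate and libraries left out.

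The members and lists were chosen with earlier results of these data known. All members were accounted for, with values in every library for those that passed in at least 1 comparison or head their role. Of each other list, up to 3 genes of smallest p that passed were named, as were the 2 highest genes of each marker list. HSPA13 and the melanocyte markers beyond the 2 highest were chosen after their values were seen. Of the list symbols, 4 were matched through RefSeq synonyms. Positions and promoter windows are RefSeq's on GRCh38.p14. Levels per kilobase use the length of 1 principal transcript per gene. The code of the fits was run on simulated data. That check required few calls among unchanged genes and recovery only of planted changes far larger than those of the members. It therefore says nothing of the power at the small changes reported here. With totals of 30499559 to 36062138 counts, the common biological coefficient of variation was 0.0487.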

Additional observations from a re-analysis of the deposited data

How the results depend on the processing

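The 8 calls in the average OF1 effect other than SDF2L1 and CRELD2 held in each of 21 alternatives, and all 10 held with DESeq2, limma-voom, other scaling factors and other filters. Leaving out 1 library gave 8 to 10 calls there. With the muscle score as a covariate the calls numbered 1 for OF1 against DMSO, 2 for the combination against DMSO, 0 against XL413 and 0 against OF1. With combination replicate 1 alone they numbered 2 against XL413 and 0 against OF1. DESeq2 called 1 member with XL413 against DMSO, 7 with OF1 against DMSO and 1 in the average XL413 effect, while limma-voom called 4 with OF1 against DMSO. In the average XL413 effect limma-voom, upper-quartile factors and a filter of at least 1 CPM in 3 libraries each gave 1.

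Leaving out 1 library at a time gave 0 to 1 calls for XL413 against DMSO (1 without combination replicate 1 or 3), 0 to 5 for OF1 against DMSO (5 without combination replicate 1 or 3, and 0 without DMSO replicate 1 or 2 or OF1 replicate 2 or 3) and 3 to 10 for the combination against DMSO (3 without DMSO replicate 2 or 3 or combination replicate 2). It gave 2 to 7 for the combination against XL413 (2 without XL413 replicate 2 or combination replicate 2, and 3 without XL413 replicate 1). It gave 0 to 8 for the combination against OF1 (8 without combination replicate 1, and 0 without DMSO replicate 2, OF1 replicate 2 or 3, or combination replicate 2), 0 to 6 for the average XL413 effect (6 without combination replicate 1, 2 without combination replicate 3, and 1 without DMSO replicate 1) and 0 for non-additivity.

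The values that changed sign belong to genes that had not passed in that comparison. For CRELD2 with OF1 against DMSO, fits without 1 library ran from -0.164 to 0.0131 (the latter without OF1 replicate 1). For DNAJC10 with the combination against OF1 they ran from -0.00094 (without combination replicate 1) to 0.0920. With combination replicate 1 alone DNAJC3 was at 0.0605 and EDEM3 at 0.0378 against DMSO. With the muscle covariate CRELD2 was at 0.0020 and TXNDC11 at 0.0171 against DMSO, TXNDC11 at 0.0172 against XL413, and XBP1 at 0.0148 against OF1. The causes were not tested.

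Replicate numbers are shared across groups. The labels do not say what a shared number stands for, so the numbers were not taken as pairs. Over 18 pairs of same-numbered libraries the correlation of deviations ran from -0.16 to 0.20 and exceeded 0.1 in 1 pair. With a replicate block 10 members passed in the average OF1 effect, 2 with OF1 against DMSO, 7 with the combination against DMSO (HERPUD1 lost), 5 against XL413 (HSPA5 lost) and 1 against OF1, and 0 in the others.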

Other observations

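In the average XL413 effect 7 of 22 translocon and signal peptidase genes, which bring proteins into the ER, rose and 0 fell, where 6.39% of all genes were called higher and 5.63% lower. Of the 22 values 12 were above 0 and 10 below. With XL413 alone against DMSO, edgeR called 0 of the 22, where 1.26% of all genes were called higher and 1.54% lower. At an unadjusted edgeR p under 0.05 there were 6, against 2851 of all 15353 genes, and 11 values lay on each side of 0. In the average effect the signal recognition particle genes SRP54 and SRP19 were at 0.12 ± 0.03 (edgeR adjusted p = 0.0113) and 0.12 ± 0.03 (edgeR adjusted p = 0.023), and the translocon subunit SEC61G at 0.15 ± 0.03 (edgeR adjusted p = 0.0161), on the log2 scale with SE. The list's median in the average effect was 0.00. Its count was 2 with combination replicate 1 as the lone combination library and 0 with the muscle score as a covariate, both chosen after seeing the data.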
